A study of Mus musculus with 36 samples.

Results

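The erythroid lineage genes are the genes that a developing red blood cell uses to become and to stay a red cell: its transcription factors, the erythropoietin receptor, the proteins of its membrane and membrane skeleton, its blood group antigens and a set of enzymes and carriers. They were taken as a list of 38 symbols, with globins and heme enzymes left out, and 34 of the 38 were matched among the 21889 gene symbols measured. Sptb, Ahsp, Tfr2l and Mgst3l were not analysed under these symbols. Values of beta-spectrin (Sptb) are given below under the name Spnb1, outside the counts. All 34 passed the filter on low values (an age mean of 1 FPKM or more).

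Messenger RNA of whole liver was sequenced in 36 male C57BL/6 mice (C57BL/6J in the study's methods), 3 different animals at each of 12 ages: 1 late in gestation (GD17.5), the day of birth (Day 0), Days 1, 3 and 5, Days 10, 15 and 20, and, after weaning, Days 25, 30, 45 and 60. The labels name no mutation or treatment in any group, so the groups differ by age and by what goes with it: the Day 0 pups were taken before suckling, and mice were weaned between Days 20 and 25. The study timed Day 0 and Day 1 from birth and gave a fixed morning hour for Days 3 to 60. Time of day may therefore also differ between these ages. The animals came from several litters. Values are FPKM, fragments per kilobase of transcript scaled to the mapped fragments of a library, so levels can be set side by side between genes. Because whole liver holds hepatocytes and blood-forming cells together, fewer cells of a type and less RNA per cell cannot be told apart in these values.

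Before birth the liver is the main site of red cell formation, which moves to the bone marrow and, in mice, the spleen around birth. In this process Gata1, with its partner Zfpm1 (FOG1) and the complex of Tal1 and Lmo2, turns on erythroid genes, Klf1 acts at CACCC elements, and erythropoietin signals through Epor to keep the cells alive. Late in maturation the cell builds a membrane anchored to a spectrin skeleton, fills with hemoglobin and, in mammals, expels its nucleus.

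The promoter sequences are shown first because the list holds both these factors and genes known as their targets. RefSeq (GRCm38.p6) gave promoter windows for 24 of the 34 genes (37 windows), of which the 250 bases before the annotated start were searched on both strands. A GATA motif (AGATAA or TGATAA) was present in 16 of the 37 windows, 43.2% against 16.6% of the 32851 windows of the same length over all genes. The TAL1-GATA composite (CTG, then 8 or 9 bases of any kind, then GATAA, which overlaps the GATA motif where A or T precedes it) was found in 8 windows, 21.6% against 1.25% of all. CACCC-type elements (CCNCNCCC) were common everywhere, in 51.4% against 45.9%, and the NF-E2 core (TGACTCA or TGAGTCA) was in 8.11% against 4.46%. These shares describe letters in a window and are not binding sites, and no test was run on them.

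The composite matches of the 8 genes are given on the strand that carries CTG, with CTG and GATAA in capitals, to show how the spacer between them varies.
Klf1: CTGtcttccctGATAA
Gfi1b: CTGtgaagttttGATAA
Hemgn: CTGtgcagtgtGATAA
Epb4.2: CTGtttgaacgaGATAA
Kel: CTGagaaactaaGATAA
Rhag: CTGtatagtgttGATAA
Icam4: CTGgccgcaggaGATAA
Ermap: CTGcccacccctGATAA

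The spacer was 8 bases in Klf1 and Hemgn and 9 bases in the others, and the letters within it differed from gene to gene. In GRCm38.p6 the matches lay at chr8:84901902-84901917 (Klf1), chr2:28622097-28622113 (Gfi1b), chr4:46404191-46404206 (Hemgn), chr2:121037087-121037103 (Epb4.2, RefSeq Epb42), chr6:41704376-41704392 (Kel), chr17:40811118-40811134 (Rhag), chr9:21029389-21029405 (Icam4) and chr4:119190046-119190062 (Ermap). The nearest to its start was that of Hemgn, ending 8 bases before it, and the farthest that of Epb4.2, between 210 and 226 bases before it.

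The whole searched windows of a transcription factor (Klf1, plus strand, chr8:84901732-84901981), a blood group protein (Kel, minus strand, chr6:41704326-41704575) and the erythropoietin receptor (Epor, minus strand, chr9:21963577-21963826) are printed as examples of the layouts, 5′ to 3′ towards the start, with GATA and CACCC matches on either strand in capitals.
Klf1: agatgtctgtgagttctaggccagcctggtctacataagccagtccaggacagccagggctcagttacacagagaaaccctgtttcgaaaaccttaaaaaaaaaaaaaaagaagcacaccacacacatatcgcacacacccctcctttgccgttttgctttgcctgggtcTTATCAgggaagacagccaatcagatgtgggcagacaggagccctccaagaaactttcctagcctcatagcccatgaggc
Kel: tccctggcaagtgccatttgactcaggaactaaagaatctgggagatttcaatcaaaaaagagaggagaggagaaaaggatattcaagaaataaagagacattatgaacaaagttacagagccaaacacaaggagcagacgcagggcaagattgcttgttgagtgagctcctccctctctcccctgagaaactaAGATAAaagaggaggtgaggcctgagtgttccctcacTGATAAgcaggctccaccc
Epor: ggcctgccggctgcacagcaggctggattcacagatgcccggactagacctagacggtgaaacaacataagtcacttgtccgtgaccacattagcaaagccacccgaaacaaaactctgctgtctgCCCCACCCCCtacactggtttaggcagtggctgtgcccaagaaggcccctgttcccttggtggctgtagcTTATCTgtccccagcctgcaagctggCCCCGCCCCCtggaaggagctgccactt

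With CACCC searched as CCNCNCCC, Klf1 held 1 GATA match and no CACCC match, and Kel 2 GATA matches and no CACCC match. Epor held 1 GATA match and 4 CACCC matches in overlapping pairs. The shorter letters CACCC, which were not searched by themselves, do occur in the Klf1 and Kel windows. The Gata1 window held 3 CACCC matches and no GATA match, which says only that these letters were not in those 250 bases.

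The list as a whole was highest before birth. The mean was highest at GD17.5 for 32 of the 34 genes, against 41.1% of all 11149 genes tested; Car1 was highest at Day 3 and Aqp9 at Day 10. Without Aqp9, the median level was 38.2% of the GD17.5 level on the day of birth, 19.7% by Day 1, 35% on Day 3, 19.5% on Day 5, 2.36% on Day 10 and 0.320% on Day 15. It then stayed between 0.121% and 0.310% from Day 20 to Day 60. The fall therefore ran in 2 steps, around birth and between Days 5 and 15, with a second, smaller peak at Day 3 between them.

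**Figure D1:**
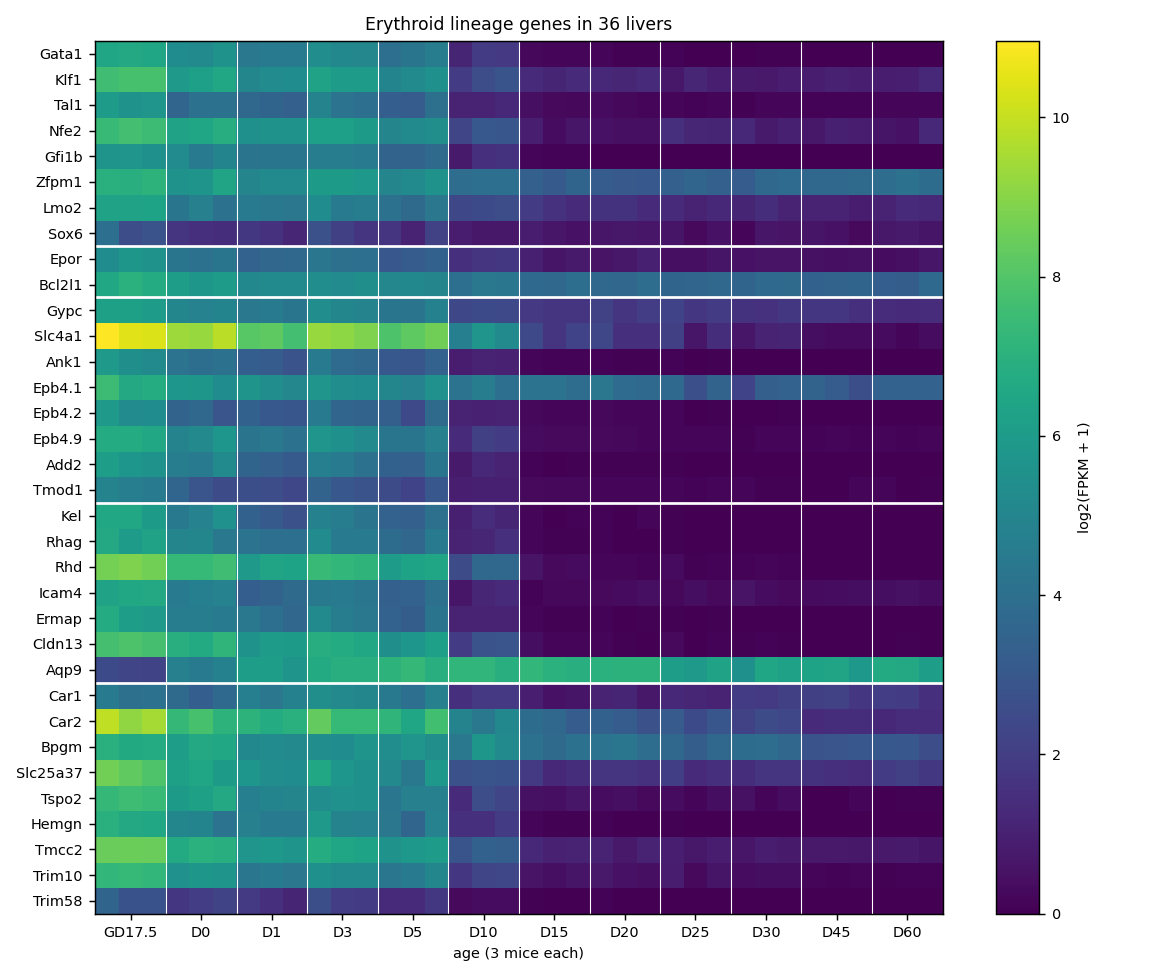
Heat map of log2(FPKM + 1) for the 34 erythroid lineage genes (rows, in the order of the text: regulators, receptor and survival, membrane and skeleton, blood group and surface, cytosol and organelles, parted by thick white lines) in 36 livers (columns, 3 mice at each age). The colour runs from dark (0) to yellow; most rows are bright at GD17.5, dimmer at Day 1, brighter again at Day 3 and dark from Day 15, while Aqp9 runs the other way.

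Levels at the start were not alike. At GD17.5 the 33 genes other than Aqp9 summed to between 1.22% and 1.76% of all FPKM in a liver, and at Day 60 to between 0.0129% and 0.0146%. The single highest was Slc4a1, at a mean of 1593 FPKM, and the lowest of the 33 was Trim58, at 7.39 FPKM. At Day 60 the mean of 23 of the 33 was under 1 FPKM and that of 16 under 0.1 FPKM, and 10 were listed at 0 in at least 1 mouse. The values of Gata1 at Day 60 (0.00742, 0.00755 and 0.00739 FPKM) were the lowest step seen for that gene, within 0.1 of 1 times its lowest value after correction for relative depth.

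Against Day 60, all 34 genes differed in at least one age (limma on log2(FPKM + 1), adjusted p under 0.05 over all genes and all 11 comparisons), as did 90.7% of all genes tested. At GD17.5, 33 were higher and 1 (Aqp9) lower, where 75.1% of all genes tested passed in either direction and 56.4% were higher. The median log2 difference was 5.96 over the 34 genes and 0.56 over all genes tested. The number higher than Day 60 was 33 on Day 0 (43.6% of all tested), 33 on Day 1 (53.4%), 33 on Day 3 (55.7%), 34 on Day 5 (56.9%) and 30 on Day 10 (35.3%). It then dropped to 7 on Day 15 (18.4%), 5 on Day 20 (8.93%), 3 on Day 25 (4.18%) and 2 on Day 30 (1.77%). Fewer were lower than Day 60: Aqp9 at GD17.5 (18.6% of all tested), Day 0 (20.3%) and Day 1 (11.7%), Car1 and Zfpm1 at Day 15 (8.95%) and Day 20 (6.99%), and Car1 at Day 25 (3.24%). At Day 45, 0 of 34 passed in limma, against 0.233% of all genes. At that age 0 had an unadjusted p under 0.05, against 7.22% of all genes, and Dunnett's comparison also called 0. Between the age groups used in the study, 33 of 34 were higher in GD17.5 to Day 5 than in Days 25 to 60 (70.2% of all tested), and 28 were higher in Days 10 to 20 than in Days 25 to 60 (44.9%).

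The regulators fell together and to different floors. Klf1, the factor of the CACCC elements of adult globin genes, was measured at 192, 219 and 220 FPKM at GD17.5. It had 31.8, 37.8 and 39 FPKM at Day 1, then 79.3, 65.7 and 63.9 FPKM at Day 3, 2.79, 5.05 and 6.17 FPKM at Day 10 and 0.798, 0.899 and 1.39 FPKM at Day 60. The mice of the ages given did not overlap. The GD17.5 level was higher than that of Day 60 by 6.71 on the log2 scale (SE 0.19, adjusted p = 1.05e-22, limma). Gata1 stood at 87.9, 96.0 and 87.2 FPKM at GD17.5, 20.3, 22.2 and 22.5 at Day 1, 40.9, 33.6 and 32.7 at Day 3, and 1.2, 2.87 and 2.5 at Day 10. Gata1 thus rose and fell with Klf1 and ended far lower, at a mean of 0.00745 FPKM at Day 60. Nfe2, a subunit of the NF-E2 factor of the globin locus control region, had 170, 204 and 180 FPKM at GD17.5, 44.2, 48.8 and 47.9 at Day 1, and 72.9, 71.7 and 62.1 at Day 3. It was the one member that rose from Day 20 to Day 25: its means of 0.381 and 1.39 FPKM differed by 0.78 on the log2 scale (adjusted p = 0.00791, limma).

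Zfpm1, which encodes the Gata1 partner FOG1, kept the highest floor of the regulators. Its values were 124, 120 and 134 FPKM at GD17.5, 30.6, 36.7 and 35.9 at Day 1, 61.5, 62.1 and 56.7 at Day 3, 8.13, 7.34 and 7.18 at Day 20 and 14.1, 16 and 13.8 at Day 60. It was lowest at Day 20 and then higher again in the adult: Day 15 and Day 20 lay below Day 60 by log2 differences of -0.64 and -0.87 (adjusted p = 0.00584 and 0.000459, limma). The other regulators were Tal1 and Lmo2, of the same complex, the repressor Gfi1b, and Sox6, a silencer of embryonic globin. Their GD17.5 means lay between 8.70 FPKM (Sox6) and 79.7 FPKM (Lmo2), and at Day 60 Gfi1b was listed at 0 in every mouse while Lmo2 still had 1.30 FPKM.

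Of the receptor and survival genes, Epor fell close to the floor and Bcl2l1 did not. Epor, the erythropoietin receptor, was at 39.3, 54.4 and 47.6 FPKM at GD17.5, 9.89, 11.2 and 11.5 at Day 1, 18.8, 15.5 and 15.2 at Day 3, and 0.272, 0.370 and 0.582 at Day 60. Bcl2l1, which encodes the survival protein BCL-XL and is used by many cell types, was at 92.1, 125 and 107 FPKM at GD17.5, 34.1, 36.4 and 36.7 at Day 1, 40.5, 37.9 and 43.2 at Day 3 and 8.58, 8.5 and 12.6 at Day 60. Its Day 60 mean was thus 9.15% of the GD17.5 mean, against 0.866% for Epor.

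The membrane and skeleton genes held the most abundant message of the list. Slc4a1, the anion exchanger band 3, was measured at 1992, 1437 and 1350 FPKM at GD17.5, 273, 302 and 205 at Day 1, 610, 554 and 455 at Day 3, 25.2, 52.1 and 35.4 at Day 10, 4.42, 2.24 and 3.67 at Day 15 and 0.231, 0.134 and 0.269 at Day 60. Its log2 difference between GD17.5 and Day 60 was 10.34 (SE 0.29, adjusted p = 1.02e-22, limma), the largest of the list on the log2(FPKM + 1) scale, which holds down the change of genes with lower levels. Its level was still higher than at Day 60 at Day 25, by 1.11 on the log2 scale (adjusted p = 0.0127). Epb4.9 (RefSeq Dmtn), the actin-bundling protein dematin, was at 106, 106 and 92.5 FPKM at GD17.5, 17.6, 19.7 and 16 at Day 1 and 51.6, 44.6 and 36.9 at Day 3. The Day 3 values lay well clear of those of Day 1, and the mean was 0.0938 FPKM at Day 60.

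Epb4.1 (RefSeq Epb41), protein 4.1R, which ties spectrin and actin to the membrane and is made in many tissues, behaved unlike its neighbours in the skeleton. It had 181, 96.6 and 111 FPKM at GD17.5, 49.8, 40.5 and 32.2 at Day 1, 51.4, 40.8 and 38.8 at Day 3 and 9.87, 9.83 and 9.80 at Day 60. The Day 1 and Day 3 mice overlapped. Gypc (glycophorin C), Ank1 (ankyrin), Epb4.2 (protein 4.2), Add2 (beta-adducin) and Tmod1 (tropomodulin) had GD17.5 means from 25.7 FPKM (Tmod1) to 70.3 FPKM (Gypc) and Day 60 means from 0.00120 FPKM (Add2) to 1.58 FPKM (Gypc). Beta-spectrin was listed as Sptb and is given by RefSeq as the present name of a row called Spnb1, which was looked up after other values were seen and is not counted: it went from 77.7 FPKM at GD17.5 to 11.6 at Day 1, 29.1 at Day 3 and 0.0365 at Day 60. In the mm9 annotation (GENCODE M1) exons of Tmod1 overlap those of Tstd2 on the other strand, and those of Ank1, Epb4.1, Icam4 and Tmcc2 overlap other transcripts there. The libraries did not keep strand, so these values may include reads of the partner.

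The 6 blood group and surface genes other than Aqp9 had means of 0.318 FPKM or less at Day 15. Rhd, the Rh blood group antigen, was at 401, 458 and 400 FPKM at GD17.5, 60.8, 83.8 and 81.9 at Day 1, 167, 153 and 140 at Day 3, 4.75, 11.5 and 12.0 at Day 10 and 0.0260, 0.00887 and 0 at Day 60. Cldn13, a claudin found in rodents, followed with 212, 236 and 214 FPKM at GD17.5, 48.8, 64.2 and 61.5 at Day 1, and 114, 106 and 91.1 at Day 3. Both fell about 3 log2 units in the step from Day 5 to Day 10, Cldn13 by -3.26 (SE 0.18, adjusted p = 1.22e-13, limma) and Rhd by -3.00 (SE 0.19, adjusted p = 1.26e-12). Kel, the Kell endopeptidase, had 90.2, 90.3 and 62.3 FPKM at GD17.5, 9.55, 7.62 and 5.67 at Day 1 and 27, 23.2 and 17.7 at Day 3. Its Day 1 mean was 9.41% of the GD17.5 mean, the lowest share of the 33 genes at that age. Icam4, the Landsteiner-Wiener antigen, had GD17.5 values of 79.5, 91.8 and 95.6 FPKM and Day 1 values of 8.72, 10.1 and 12.8. With Rhag, the Rh-associated glycoprotein, and Ermap, the Scianna antigen, the median of these 6 genes was 0.0847% of the GD17.5 level at Day 15, against 0.554% for the 8 regulators and 0.268% for the 8 membrane and skeleton genes; these medians were not tested against each other.

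Of the enzymes and carriers, Car2 was the most abundant. Carbonic anhydrase 2 was at 950, 567 and 707 FPKM at GD17.5, 136, 106 and 122 at Day 1, 323, 161 and 161 at Day 3, 13.7, 12.1 and 8.24 at Day 15 and 1.36, 1.60 and 1.60 at Day 60. It was above Day 60 at every age up to Day 30, where the log2 difference was 1.00 (SE 0.28, adjusted p = 0.0398, limma). Day 30 was the latest age at which a member passed (Car2 and Bpgm), and with single mice left out 0 to 2 passed there. Tmcc2, a transmembrane protein of the endoplasmic reticulum, had 347, 357 and 349 FPKM at GD17.5, 52.1, 56.3 and 49.9 at Day 1 and 108, 89.5 and 82.2 at Day 3. Slc25a37, mitoferrin-1, the iron importer of erythroid mitochondria, had 390, 307 and 249 FPKM at GD17.5, 53.5, 40.8 and 38.8 at Day 1 and 91.3, 53.0 and 44.1 at Day 3, where its mice overlapped those of Day 1. Tspo2, an erythroid relative of the translocator protein, had 156, 186 and 170 FPKM at GD17.5, 25.3, 30.0 and 30.4 at Day 1 and 40.8, 46.1 and 44.1 at Day 3. Hemgn (hemogen) and the RING proteins Trim10 and Trim58, the latter with a role in nuclear extrusion, had GD17.5 means of 105, 154 and 7.39 FPKM and Day 60 means of 0.00608, 0.0605 and 0 FPKM.

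**Figure D2:**
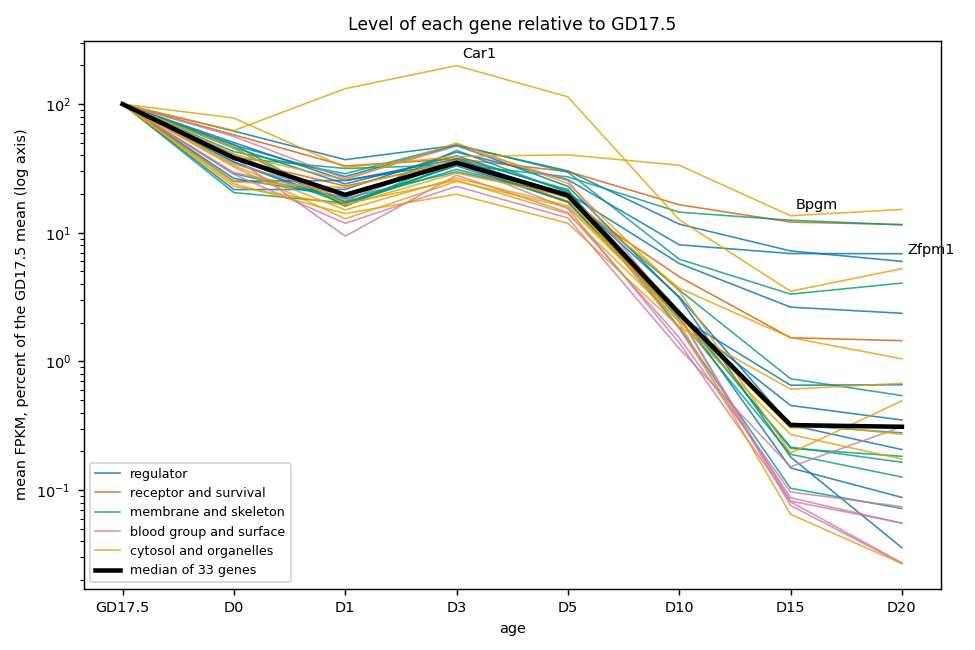
Mean FPKM of each gene as a percent of its GD17.5 mean (log axis) from GD17.5 to Day 20, coloured by role, with the median of 33 genes in black and Aqp9 left out because it was lowest at GD17.5. The black line passes 38.2% on Day 0, 19.7% on Day 1, 35% on Day 3 and 2.36% on Day 10; Car1 reaches 199% at Day 3 and Bpgm is still at 33.5% at Day 10.

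The step across birth was a fall in nearly the whole list. From GD17.5 to Day 0, 32 of 34 genes fell (41.4% of all tested fell), with a median log2 change of -1.38 against -0.29 over all genes. Epb4.2 (-2.18, SE 0.24), Car2 (-2.11, SE 0.28), Slc25a37 (-2.04, SE 0.26) and Hemgn (-2.01, SE 0.24) fell furthest, all with adjusted p under 0.05. Bpgm, with a change of -0.37 (adjusted p = 0.155, limma), did not pass, and Aqp9 rose by 2.35. From Day 0 to Day 1 a further 25 fell (7.88% of all tested), with a median of -0.75 against 0.19, and 2 rose (23.7% of all tested rose), Car1 by 1.02 and Aqp9 by 1.29. Kel fell most, by -1.86 (adjusted p = 9.22e-08), followed by Add2 (-1.48) and Slc4a1 (-1.47). Tal1, Lmo2, Sox6, Car2, Epb4.1, Epb4.2 and Hemgn did not pass in that step; for Lmo2 the 2 means were 20.0 and 20.3 FPKM.

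From Day 1 to Day 3 the list rose. The mean was higher at Day 3 for all 34 genes, and for 30 of them every Day 3 mouse lay above every Day 1 mouse, against 20.4% of all genes tested. In limma 22 rose and 0 fell, where 8.22% of all genes rose and 3.09% fell, and the median log2 change was 0.72 (range 0.10 to 1.46) against 0.06 over all genes. All 7 blood group and surface genes rose, as did 6 of the 8 membrane and skeleton genes, 4 of the 8 regulators, 4 of the 9 cytosol and organelle genes and 1 of the receptor and survival pair. The 34 and the 22 include Aqp9 and Car1, which had already risen from Day 0 to Day 1. Aqp9, also among the 7 surface genes, had its highest mean at Day 10 and not at Day 3. The largest changes were those of Kel (1.46, SE 0.21, adjusted p = 1.65e-05), Epb4.9 (1.27, SE 0.17, adjusted p = 7.48e-06), Add2 (1.15, SE 0.19, adjusted p = 0.000130), Slc4a1 (1.06, SE 0.29, adjusted p = 0.0146) and Rhd (1.02, SE 0.19, adjusted p = 0.000435). The 12 that did not pass were Bcl2l1, Bpgm, Car2, Epb4.1, Epb4.2, Gfi1b, Hemgn, Lmo2, Nfe2, Slc25a37, Sox6 and Tspo2.

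The number of genes called at the Day 3 peak varied with the setting more than its size did. The median log2 change was 0.78 with a pseudocount of 0.1, 0.65 with libraries scaled to a common sum (TPM), 0.66 with that sum taken without globins and 0.59 with a common upper quartile. The count of genes that rose was 14 with a pseudocount of 0.1, 15 with TPM, 17 without globins and 18 with the upper quartile. Of all genes tested, 8.14%, 7.84%, 9.14% and 9.04% changed in either direction in these settings, against 11.3% in the main analysis. With single mice left out the count lay between 15 (without Day 1 mouse 3) and 24, and without Day 3 mouse 1 it was 16. Klf1, Tal1, Zfpm1, Gypc, Ank1, Add2, Epb4.9, Kel, Rhd, Icam4, Tmcc2 and Trim10 rose in all 44 alternatives tried, and Gata1, Cldn13 and Aqp9 in 43 of them. Slc4a1 rose in 39, Car1 in 33 and Tmod1 in 14. The Epb4.1 change of 0.10 turned to -0.0314 with the upper quartile.

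**Figure D3:**
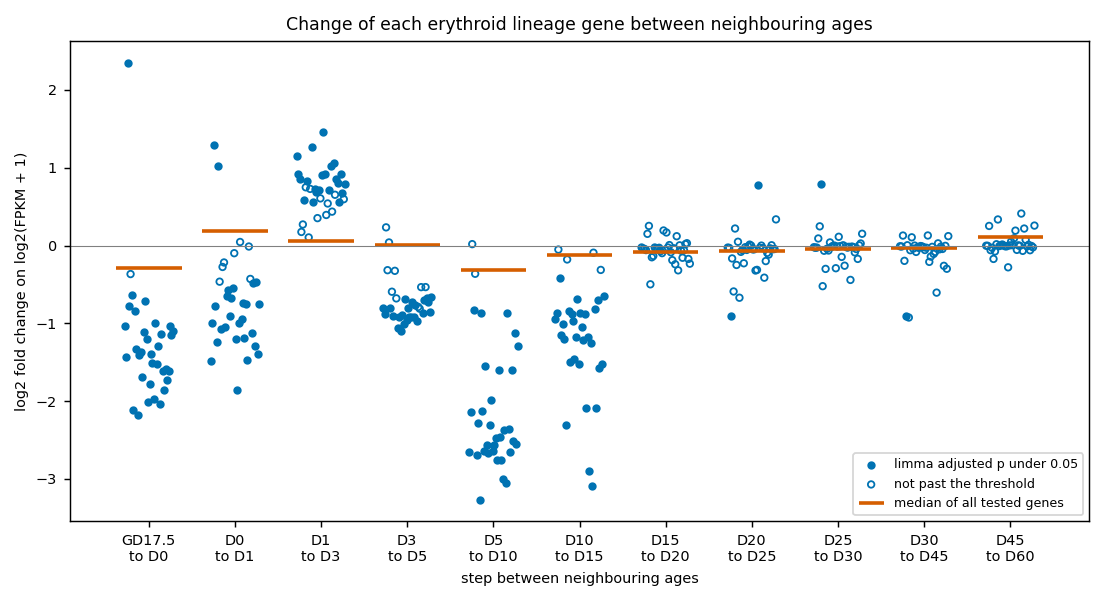
Log2 fold change on log2(FPKM + 1) of each of the 34 genes (points) in the 11 steps between neighbouring ages, filled where the limma adjusted p was under 0.05, with the median of all tested genes as an orange bar. Most points lie below the bar from GD17.5 to Day 0 (Aqp9 is above it) and from Day 0 to Day 1 (Aqp9 and Car1 are above it), above it from Day 1 to Day 3 (22 filled, none below 0), below it again to Day 15, and around it afterwards.

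After Day 3 the list fell in 3 consecutive steps. From Day 3 to Day 5, 24 fell (2.12% of all tested), with a median log2 change of -0.80 against 0.01. This count was 10 with a pseudocount of 0.1 or with TPM, where the median was -0.84 and -0.73. Of all genes tested, 1.56% and 2.38% changed in either direction there, against 3.2% in the main analysis. The count was 13 without Day 3 mouse 1 or without Day 5 mouse 2. From Day 5 to Day 10, 32 fell (34.4% of all tested), with a median of -2.41 against -0.31, and from Day 10 to Day 15, 30 fell (10.5% of all tested), with a median of -1.03 against -0.12. The added 1 shrinks changes of low values: with a pseudocount of 0.1 the medians of the Day 5 to Day 10 and Day 10 to Day 15 steps were -2.83 and -2.27. On the log2(FPKM + 1) scale Gata1 changed by -2.67, Klf1 by -2.76, Rhag by -2.75 and Tmcc2 by -2.65 from Day 5 to Day 10, all with adjusted p under 0.05. In FPKM, Gata1 went from a mean of 19.1 to 2.19 and then to 0.134 at Day 15, and Rhag from 15.7 to 1.43 and then to 0.0692. Slc4a1 changed by -3.05 in the first of these steps and by -3.09 in the next.

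Past Day 15 few genes of the list passed on the log2(FPKM + 1) scale. From Day 15 to Day 20, 0 of 34 passed in limma, where 1.99% of all genes passed. In that step 0 had an unadjusted p under 0.05, against 9.59% of all genes. From Day 20 to Day 25 Nfe2 rose and Aqp9 fell, by 0.78 and -0.90 (7.19% of all tested passed); from Day 25 to Day 30 Car1 rose by 0.80 (1.64%); from Day 30 to Day 45 Bpgm fell by -0.91 (1.03%). From Day 45 to Day 60, 0 of 34 passed in limma, against 0.233% of all genes. There 0 had an unadjusted p under 0.05, against 7.22% of all genes. The log2(FPKM + 1) scale compresses levels under 1 FPKM: with a pseudocount of 0.1, 26 genes differed between Day 15 and Day 60 in place of 9. Of all genes tested, 31.3% differed in place of 27.4%. The 6 blood group and surface genes other than Aqp9 had a median of 0.0847% of the GD17.5 level at Day 15 and 0.00422% at Day 60. Their Day 60 means were 0.328 FPKM or less.

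Bpgm, bisphosphoglycerate mutase, which makes the 2,3-bisphosphoglycerate that lowers the oxygen affinity of hemoglobin, held the largest share of its GD17.5 level of the 33 genes on Days 10, 15 and 20. Its values were 125, 99.2 and 107 FPKM at GD17.5, 33.9, 38 and 34.5 at Day 1, 40.5, 50.8 and 42.0 at Day 5, 20.1, 54.5 and 36 at Day 10, 15.9, 12.7 and 16.2 at Day 15 and 7.16, 6.76 and 5.06 at Day 60. At Day 10 its mean was 33.5% of the GD17.5 mean while the median gene was at 2.36%, with the 3 mice spread widely. The change from Day 5 to Day 10 was -0.36 (adjusted p = 0.197, limma), and it turned to 0.0836 with a common upper quartile and to 0.00482 without Day 10 mouse 1. It fell from Day 10 to Day 15 by -1.15 (SE 0.22, adjusted p = 0.000456).

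Car1 and Car2, carbonic anhydrases of the red cell cytosol, went different ways. Car1 was at 22.3, 15.4 and 16.6 FPKM at GD17.5, 12.7, 8.74 and 12.4 at Day 0, 25.7, 19.1 and 26.8 at Day 1, 41.1, 35 and 31.9 at Day 3, 0.890, 0.458 and 0.558 at Day 15 and 2.99, 2.69 and 1.89 at Day 60. It was the one gene of the list apart from Aqp9 to pass in limma as higher at Day 1 than at Day 0, where the mean was higher for 4 of 34. At Day 3 Car1 stood at 199% of its GD17.5 mean. Its lowest level was at Day 15, and Days 15, 20 and 25 lay below Day 60 by log2 differences of -1.10 (adjusted p = 3.60e-05), -0.85 (adjusted p = 0.00145) and -0.63 (adjusted p = 0.0336, limma). The ratio of Car1 to Car2 FPKM in single mice was 0.0235 to 0.0273 at GD17.5, 0.127 to 0.217 at Day 3, 0.0377 to 0.0678 at Day 15 and 1.18 to 2.20 at Day 60. The mice of these ages did not overlap in that ratio, which was not tested.

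Aqp9, an aquaporin that passes glycerol and is made by mouse red cells and by hepatocytes, ran against the list. It was at 4.54, 3.95 and 3.79 FPKM at GD17.5, 26.6, 21.5 and 27.2 at Day 0, 70.4, 70.1 and 49.6 at Day 1, 136, 155 and 116 at Day 5, 148, 147 and 117 at Day 10, 69, 57.7 and 78.8 at Day 25 and 102, 97.2 and 67.0 at Day 60. GD17.5 was the lowest of all ages and lay below Day 60 by -4.12 (SE 0.20, adjusted p = 4.76e-17, limma). Aqp9 was the only member lower at GD17.5 than at Day 60. Whole-liver values do not part red cells from hepatocytes, and the red cell part of the Aqp9 values was not tested. The hepatocyte markers summed to between 12779 and 14582 FPKM at GD17.5 and between 61353 and 77699 at Day 0. From Day 0 to Day 5 their mean sum went from 71104 to 59396 FPKM while the Aqp9 mean went from 25.1 to 136, and the part of those cells in the Aqp9 values was not tested.

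**Figure D4:**
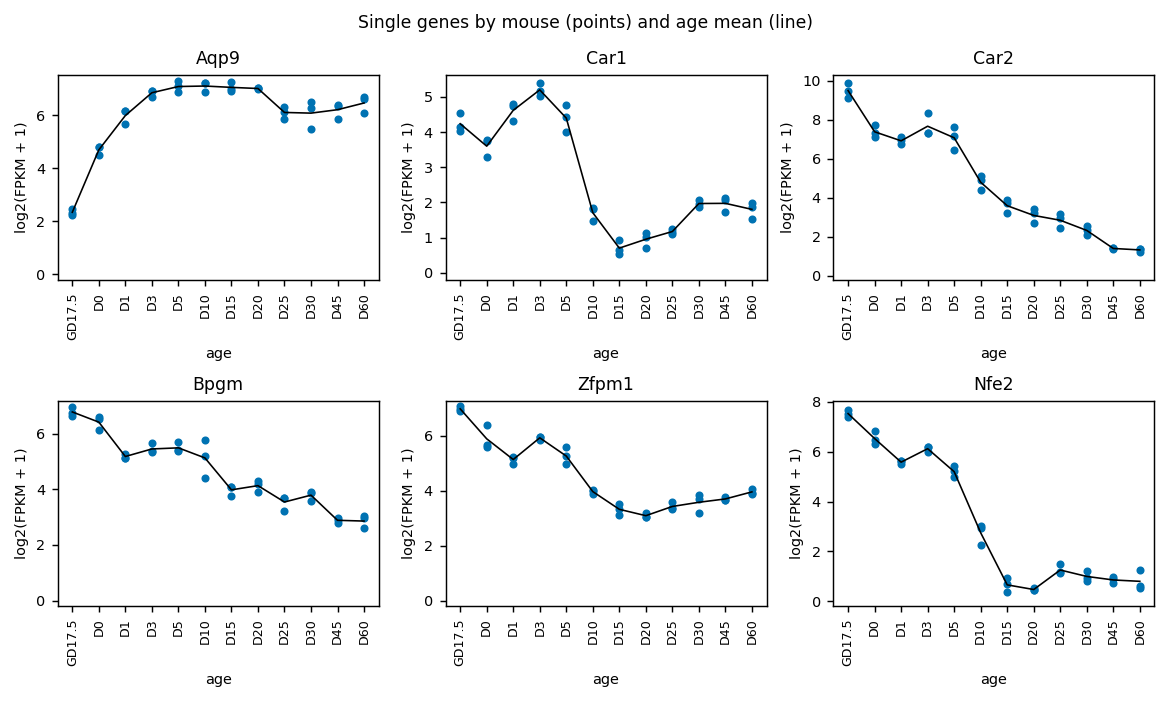
Log2(FPKM + 1) of Aqp9, Car1, Car2, Bpgm, Zfpm1 and Nfe2 by age, with a point for each mouse and a line through the age means. Aqp9 climbs from about 4 FPKM to over 100 FPKM, Car1 peaks at Day 3 and has its low point at Day 15, Zfpm1 has its low point at Day 20, and the Day 10 mice of Bpgm are spread from 20.1 to 54.5 FPKM.

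At some ages the mice differed together over the list. At Day 10, mouse 1 was the lowest of the 3 for 28 of the 33 genes without Aqp9, against 24.3% of all tested genes; at Day 5, mouse 3 was the highest for 30 (38%); at Day 3, mouse 1 was the highest for 28 (44.4%) and mouse 3 the lowest for 29 (27.5%). At Day 0 and Day 45 no mouse stood apart, each being the lowest for 10 to 14 of the genes. Globins moved with them at Day 10, where mouse 1 had a summed 4910 FPKM and the others 19210 and 14009. They did not at Day 3, where mouse 1 had 42434 FPKM of globins and mouse 3 had 48052. In Day 10 mouse 1 skeletal muscle markers summed to 102 FPKM, against 9.79 and 1.79 in the others, and in Day 0 mouse 1 to 1384 FPKM. Exocrine pancreas markers summed to 19394 FPKM in Day 60 mouse 1, against 4.83 in mouse 2 of that age, to 6937 in Day 20 mouse 2, 5188 in Day 0 mouse 3, 4922 in Day 15 mouse 3 and 4537 in Day 45 mouse 1. Without Day 60 mouse 1 the count of genes differing between GD17.5 and Day 60 was 34, as with all mice, and between Day 15 and Day 60 it was 6 in place of 9. The part of these tissues in the erythroid values was not tested. Leaving out Day 10 mouse 1 or any other mouse gave between 30 and 33 genes changed from Day 5 to Day 10, against 32 with all mice.

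Other blood lineages were followed by summed markers over the same ages. Globins, present in red cells of every stage, made up 39.3% of all FPKM at GD17.5, 18.1% on Day 0, 7.53% on Day 1, 10.4% on Day 3 and 0.170% by Day 60. From Day 1 to Day 3 the sum of globins went from between 23327 and 34280 FPKM to between 42434 and 48052, with 5 of 7 genes higher, and that of 6 proliferation genes from between 66.0 and 77.2 to between 87.6 and 126, with 6 of 6 higher. Megakaryocyte markers, which share Gata1, Zfpm1, Nfe2, Tal1 and Gfi1b with the red cell, went the other way, from between 326 and 359 to between 208 and 232 FPKM, with 1 of 9 higher. Neutrophil markers went from between 2506 and 3160 to between 1671 and 2156 (3 of 9 higher), B lineage markers from between 55.6 and 71.9 to between 36.8 and 55.1 (1 of 7 higher), and progenitor markers from between 13.4 and 19.6 to between 12.5 and 12.7 (0 of 7 higher). The Day 1 and Day 3 mice did not overlap in any of these sums. Macrophage markers overlapped, at 166 to 207 and 173 to 193 FPKM (4 of 7 higher). These sums were not tested, and their part in the erythroid values was not tested.

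**Figure D5:**
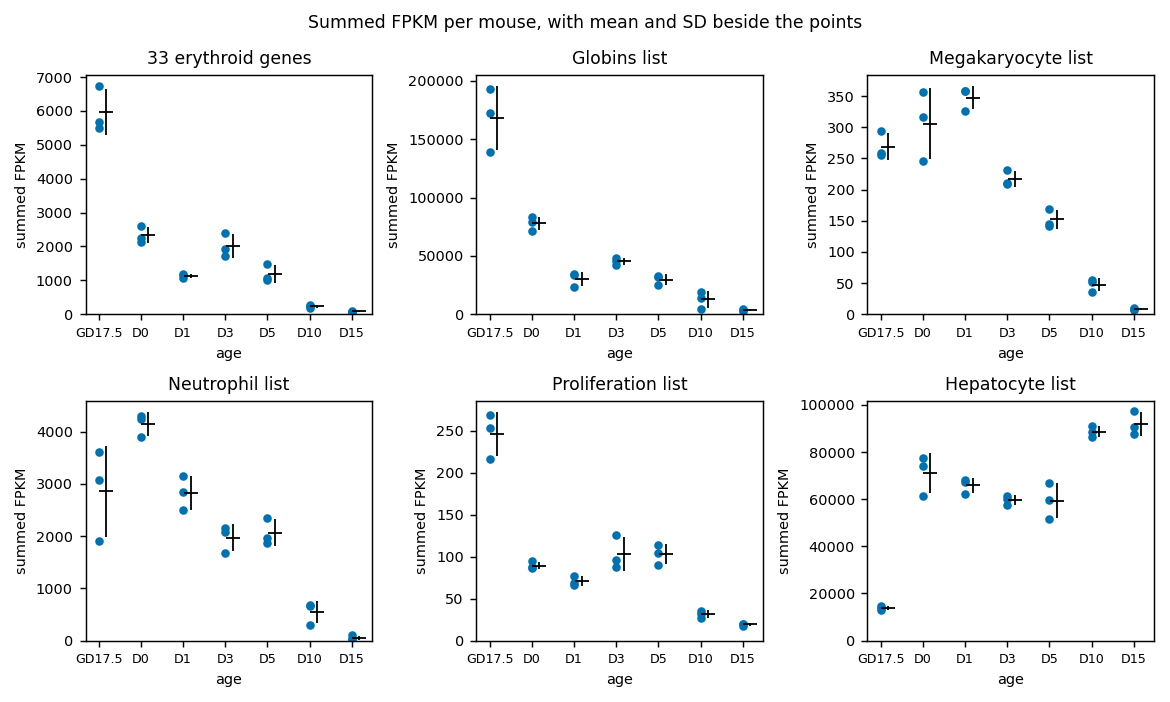
Summed FPKM per mouse (points, with mean and SD beside them, 3 mice an age) from GD17.5 to Day 15 for the 33 erythroid lineage genes without Aqp9 and for 5 marker lists, each on its own axis from 0. The erythroid genes, globins and proliferation genes are higher at Day 3 than at Day 1, and the megakaryocyte and neutrophil sums are lower.

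Other genes of red cell formation outside the list moved in part in the same steps. Of 60 symbols, listed with earlier results of these data known, 52 had values and 48 were tested. Epb41, Epb42 and Dmtn, the RefSeq names of members, were among the 60 but not among the 48. At GD17.5, 42 were higher (56.4% of all tested) and 1 lower (18.6%) than at Day 60, with a median log2 difference of 2.08 (0.56 over all genes tested). From GD17.5 to Day 0, 35 fell (41.4% of all) and 2 rose (13.1%), with a median of -0.82 (-0.29 over all). From Day 0 to Day 1, 22 fell (7.88%) and 7 rose (23.7%), with a median of -0.30 (0.19 over all). From Day 1 to Day 3, 19 rose (8.22%) and 2 fell (3.09%), with a median of 0.44 (0.06 over all). From Day 3 to Day 5, 11 fell (2.12%) and 37 did not pass; from Day 5 to Day 10, 30 fell (34.4%) with a median of -0.81 (-0.31 over all); from Day 10 to Day 15, 12 fell (10.5%) and 36 did not pass. The largest rises from Day 1 to Day 3 were those of Pklr, pyruvate kinase of liver and red cells (2.15, adjusted p = 2.59e-05, limma), and Aqp8 (1.37, adjusted p = 0.00145). Aqp8 was also the 1 gene lower at GD17.5 than at Day 60 (-0.71, adjusted p = 0.0232). Others that rose from Day 1 to Day 3 included Blvrb, biliverdin reductase B (0.97, adjusted p = 0.00324), and the antioxidant enzyme Prdx2 (0.75, adjusted p = 0.00746). The cell cycle factor E2f2 (0.64, adjusted p = 0.0209) and the water channel Aqp1 (0.90, adjusted p = 0.00312) rose too. The 2 that fell were Myb, a factor of progenitor cells (-0.59, adjusted p = 0.0277), and the glucose carrier Slc2a1 (-0.63, adjusted p = 0.0211). The transferrin receptor Tfrc had a change of 0.40 (adjusted p = 0.676) and the stem cell factor receptor Kit one of -0.25 (adjusted p = 0.395), which did not pass.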

How the data were processed

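Polyadenylated RNA of 36 male mouse livers (3 different animals at each of 12 ages) was sequenced by the authors, who aligned reads with TopHat 1.2.0 to NCBI37/mm9, estimated transcripts with Cufflinks 1.0.3 and deposited FPKM values, 1 per gene symbol and mouse, with no further scaling between libraries given in the sources used here. Groups came from the age in the labels; replicate numbers are different animals. Members and lists were chosen with earlier results of these data known.

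Values were analysed as log2(FPKM + 1) with limma 3.58.1 in R 4.3.3, with 1 mean per age over all 36 mice, variances moderated along a trend with mean expression, and no covariate. The 11149 genes whose highest age mean reached 1 FPKM were tested, and p-values were adjusted by Benjamini-Hochberg over all of them within each comparison, with 0.05 as threshold. A fold change on this scale understates the change of low genes. Comparisons were each age against Day 60, neighbouring ages, and 3 age groups. Scripts were tested on simulated data. Alternatives were a pseudocount of 0.1, no filter or one at 5 FPKM, 3 other scalings, a replicate block, no variance trend, each mouse left out, and Dunnett's comparison with Day 60 per gene. The study used Dunnett's test after a one-way ANOVA on log2 FPKM. Here it was run on log2(FPKM + 1) without a preceding ANOVA. Named genes were all listed symbols, with values by mouse for the members of each role group with the highest means and those not highest at GD17.5; Bpgm was described further after its values were seen.

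Summed FPKM per mouse was 353712 to 450597. Low values step in whole fragments only in part: relative depth taken from 828 low genes ran from 0.887 to 1.18, and 58.0% of 8805 values of other low genes lay within 0.1 of a whole number, too few for a test on counts. The fragments behind single values were not recovered, so no counting intervals are given. Promoters are RefSeq's (GRCm38.p6), gene overlaps GENCODE M1 on mm9; the builds were not mixed.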

Additional observations from a re-analysis of the deposited data

How the results depend on the processing

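Counts of erythroid lineage genes that differed kept within 1.5 times under most alternatives. With a pseudocount of 0.1 they became 26 on Day 15, 12 on Day 20, 8 on Day 25 and 5 on Day 30 against Day 60 (from 9, 7, 4 and 2). Of all genes tested, 31.3%, 20%, 9.19% and 4.96% differed there (from 27.4%, 15.9%, 7.42% and 3.56%). The same setting gave 14 from Day 1 to Day 3 (from 22), 10 from Day 3 to Day 5 (from 24) and 5 from Day 30 to Day 45 (from 1). The shares of all genes were 8.14%, 1.56% and 2.05% (from 11.3%, 3.2% and 1.03%). Without a filter they were 1 at Day 30 against Day 60 and 0 from Day 30 to Day 45, and with a filter at 5 FPKM 7 at Day 25. TPM gave 10 from Day 3 to Day 5 (2.38% of all genes). Scaling without globins gave 1 at Day 30 against Day 60 (3.54%) and 0 from Day 25 to Day 30 (1.94%). Dunnett's comparison gave 7 at Day 25. For the filter settings and Dunnett's comparison the shares of all genes are not given here, so these counts cannot be set against them. The cause was not tested.

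With single mice left out the counts ran from 5 to 11 (Day 15), 1 to 7 (Day 25) and 0 to 2 (Day 30) against Day 60, and from 13 to 27 (Day 3 to Day 5), 1 to 3 (Day 20 to Day 25), 0 to 1 (Day 25 to Day 30) and 0 to 1 (Day 30 to Day 45). The shares of all genes with single mice left out are not given, here or above. The count at Day 15 was 5 without Day 15 mouse 1; that at Day 25 was 1 without Day 25 mouse 1 or Day 60 mouse 2, and 7 without Day 30 mouse 1. Epb4.1 from Day 1 to Day 3 turned from 0.10 to -0.0314 with the upper quartile and -0.00924 with TPM, and ran from -0.0513 (without Day 1 mouse 3) to 0.256 with single mice left out. Bpgm from Day 5 to Day 10 turned from -0.36 to 0.0836 with the upper quartile, and ran from -0.692 (without Day 10 mouse 2) to 0.00482 (without Day 10 mouse 1).

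The upper quartile moved the median of all genes between GD17.5 and Day 60 from 0.56 to 0.15, and scaling without globins moved it to 1.02; 33 members stayed higher under both.

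Residuals of same-numbered mice at different ages had a median r of 0.126 (-0.680 to 0.829, 198 pairs). For different numbers it was -0.048 (-0.777 to 0.769, 396 pairs). Both ranges are wide and overlap, so these values cannot decide whether mice of the same number share an effect such as a batch. With the replicate number as a block, 6 genes differed at Day 25 against Day 60 and 24 from Day 1 to Day 3, against 4 and 22 without it. The shares of all genes with the block are not given here, so whether the other genes moved alike cannot be read from these counts.

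Counts of fragments were not recovered, so levels under 0.1 FPKM give no firm order of genes.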
